A study of Mus musculus with 4 samples.

Results

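The genes described here encode the subunits of the mitochondrial respiratory chain in regulatory T cells (Tregs), the Foxp3-programmed CD4 T cells that restrain immune responses. Members were all probes, other than controls, whose gene name in the scanner files begins with Nduf, Uqcr, Cox4 to Cox8 or Atp5, or is Sdha, Sdhb, Sdhc or Sdhd. The rule found 93 genes on 136 probes, among 22296 named genes and 55681 probes. By name, 38 of them were subunits of complex I, 4 of complex II, 8 of complex III, 18 of complex IV and 15 of complex V, which made 83 subunits. Of the other 10 members, 7 were assembly factors of complex I (Ndufaf1 to Ndufaf7), 2 were factors of complex V (Atp5s and Atp5sl), and 1 was a pseudogene (Atp5c1-ps). Ndufa4 was counted with complex I as its name has it, although its protein is now known as a subunit of complex IV.

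RNA was measured in 4 groups of male C57BL/6 mice with 1 array each: deltaDC Tregs of the spleen, wild-type (WT) Tregs of the spleen, deltaDC Tregs of the thymus and WT Tregs of the thymus. In the field, deltaDC names mice that lack most CD11c-bright dendritic cells, usually because Cre driven by Itgax regulatory sequences switches on a toxin. The labels give neither the alleles nor the ages, nor how complete the depletion was. Cells of 3 mice per genotype were pooled before the sort for viable CD4+ CD25+ cells, so an array stands for a pool, and Foxp3 was not used in the sort. Foxp3 was bright on all 4 arrays, as were the other 10 Treg and T cell identity genes measured.

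Complex I takes electrons from NADH and complex II from succinate, a step that it shares with the tricarboxylic acid cycle. Complex III passes them on to cytochrome c, complex IV passes them to oxygen, and complex V (ATP synthase) makes ATP from the proton gradient that complexes I, III and IV build. Most subunits are encoded in the nucleus and a few in mitochondrial DNA, and the name rule takes only nuclear genes. Several complex IV subunits have a paralogue that replaces the ubiquitous form in particular tissues, such as Cox6a2, Cox7a1 and Cox8b in heart and skeletal muscle, Cox4i2 in lung and under low oxygen, and Cox6b2, Cox7b2 and Cox8c in testis. Tregs are known to rely on oxidative phosphorylation more than conventional effector T cells do.

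Values are normalized signals: spot intensity scaled so that the 75th percentile is equal on all arrays. A difference is given in log2 units, where 1 is 2-fold. There were no replicate arrays, so no p-value exists for 1 array against 1, and the error given is the spread between repeated spots of a probe, which leaves out differences between pools and labellings. At the signals of most subunits this spot error was 0.07 log2 units for a difference. In bulk RNA a lower share of cells that make a transcript and less transcript per cell cannot be told apart.

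Of the 93 genes, 88 were well above background on all 4 arrays, Cox6a2 on 3 of them, and Ndufa4l2, Cox7b2, Cox8b and Cox8c on none. Of 31 genes with more than 1 probe, 30 had at least 2 measured probes. The median gap between the differences shown by probes of a gene was 0.09 log2 units and the largest 0.89, and 6 genes had a gap over 0.5 (Atp5g1, Atp5j, Ndufa3, Ndufab1, Ndufb5 and Ndufv3). No member spot was saturated. The probe of Uqcrc2, which encodes a core protein of complex III, was spotted 10 times on each array. Its signals were 12700.5 on the deltaDC spleen array, 11547 on the WT spleen array, 13585 on the deltaDC thymus array and 11773 on the WT thymus array, with spot SDs between 0.026 and 0.036 log2 units over 9 or 10 spots.

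The results turn on the paralogues of complex IV, and the first 30 of the 60 bases of their probes, 5′ to 3′ along the transcript, identify what was measured. The Cox6a2 probe lies at chr7:135349160-135349219 on mm9, minus strand, and starts at base 388 of its RefSeq transcript. The Cox6b2 probe lies at chr7:4703488-4703547, minus strand (base 399), and the Cox7a1 probe at chr7:30970337-30970948, plus strand (base 205), a span longer than the probe. The probe of the ubiquitous Cox6a1 lies at chr5:115795726-115795785, minus strand (base 410). Whether these bases are coding or untranslated is not given in the sources used here.
Cox6a2: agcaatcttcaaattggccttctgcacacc
Cox6a1: ggaccacgaaaaccctttggatgctaagct
Cox6b2: ggaactttcccgggcaaaatatgaccttgc
Cox7a1: acaacgtcctgtacagactgaccatgacgc

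Of all other probes on the array, 5 shared a run of 12 bases with the 60 bases of the Cox6a2 probe, and 0 of these belonged to another respiratory chain gene.

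Cox6a2 had the widest spread of any member over the 4 arrays. Its normalized signal was 52.6 on the deltaDC spleen array, 4.96 (not well above background) on the WT spleen array, 4489 on the deltaDC thymus array and 72.5 on the WT thymus array. The deltaDC thymus array thus stood far above the other 3. In thymus the difference between deltaDC and WT was 5.95 ± 0.14 log2 units (spot error), or 62.0-fold, and within deltaDC mice thymus was 6.42 ± 0.14 above spleen, or 85.4-fold. After normexp background correction these differences were smaller by more than 1.5-fold, at 5.10 in thymus and 5.29 within deltaDC, which the spot error does not cover. Because WT spleen gave only a bound, deltaDC spleen was at least 3.04-fold higher than WT spleen, and WT thymus at least 4.19-fold higher than WT spleen.

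Cox6a1, the form found in most tissues, had signals of 94672 on the deltaDC spleen array, 82707 on the WT spleen array, 75969 on the deltaDC thymus array and 65362 on the WT thymus array. It differed by 0.19 between deltaDC and WT in spleen and by 0.22 in thymus, so the ubiquitous partner did not show the step of Cox6a2. Fitting genotype and organ over all 4 arrays with limma gave Cox6a2 a genotype term of 4.68 ± 0.77 (SE, adjusted p = 0.806) and an organ term of 5.14 ± 0.77 (adjusted p = 0.146), in a fit that also used its dim WT spleen value. After normexp background correction the organ term of Cox6a2 was 3.00 ± 1.17 (SE). Cox6a2 was named for its difference in earlier results of these data, so these values are a description.

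Cox6a2 is a muscle gene in most of the body and is also counted among the signature genes of mouse plasmacytoid dendritic cells, so markers of both were read. Of 21 muscle genes, 14 were well above background on no array, among them Ckm, Acta1, Mb, Des, Myog and Myod1. The muscle genes summed to 1401 on the deltaDC thymus array and 1304 on the WT thymus array, and to 620.1 on the deltaDC spleen array and 722 on the WT spleen array. Of 12 plasmacytoid dendritic cell genes, 10 were measured on both thymus arrays, with 4 higher and 6 lower in deltaDC, a median of -0.10, and none 2-fold higher. Spib, a factor that B cells also express, was the highest of them, with 498 in deltaDC thymus and 257 in WT thymus, a difference of 0.95. Siglech, a surface receptor of these cells, had signals of 45104 on the deltaDC spleen array, 69980.0 on the WT spleen array, 43105 on the deltaDC thymus array and 49332 on the WT thymus array. Tcf4, their lineage factor, was the 1 gene of the list 2-fold lower in deltaDC thymus, at 242 against 591 in WT thymus, a difference of -1.29. The plasmacytoid list summed to 75542 in deltaDC thymus and 83248 in WT thymus. In the other comparisons some of its genes rose, as Cox6a2 did. In WT, 4 of 9 were at least 2-fold higher in thymus than in spleen and 0 lower (6.54% and 3.03% of all genes). Within deltaDC, 2 of 10 were 2-fold higher in thymus and 1 lower (5.37% and 6.15%). In spleen, 2 of 10 were 2-fold higher in deltaDC than in WT and 0 lower (6.42% and 2.0%). B cell genes were higher on the same array as Cox6a2: 6 of 8 measured on both thymus arrays were at least 2-fold higher in deltaDC, and their list summed to 8560 in deltaDC thymus and 4130 in WT thymus. The part of any of these cell types in the Cox6a2 signal was not tested.

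On mm9, 11 other probes lie within 100 kb of the Cox6a2 probe, and 9 of them were well above background on both thymus arrays. This stretch was looked at after the Cox6a2 values were seen. It holds the integrin genes Itgam, Itgax and Itgad. Distances are negative towards the start of the chromosome, and the probe of Itgax, which encodes CD11c, lies at -55.1 kb. The labels do not say which stretch of sequence the deltaDC alleles carry, and whether transgene sequence adds to any of these signals was not tested. The probe of 4931431B13Rik, at -3.54 kb, had signals of 15.9 on the deltaDC spleen array and 16.6 on the WT spleen array (neither well above background), 155 on the deltaDC thymus array and 22.4 on the WT thymus array. It was 2.79 log2 units higher in deltaDC thymus than in WT thymus, or 6.94-fold. Itgad, whose probe lies at -0.26 kb, had 69.3 in deltaDC spleen and 23.7 in WT spleen, and 35.8 in deltaDC thymus and 25.2 in WT thymus. Its differences were 1.55 in spleen and 0.51 in thymus. Itgax itself had 93.8 in deltaDC spleen and 6.52 (not well above background) in WT spleen, and 173 in deltaDC thymus and 212 in WT thymus, a thymic difference of -0.29. The dimmer of the probes of Itgam, which encodes CD11b, was also at least 2-fold higher in deltaDC thymus, at 109 against 39.7 in WT thymus, while the brighter probe differed by 0.05. On the other side, 9130023H24Rik (0.62), Armc5 (0.27), Tgfb1i1 (0.07) and BC017158 (-0.31) differed less than 2-fold in thymus.

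**Figure D1:**
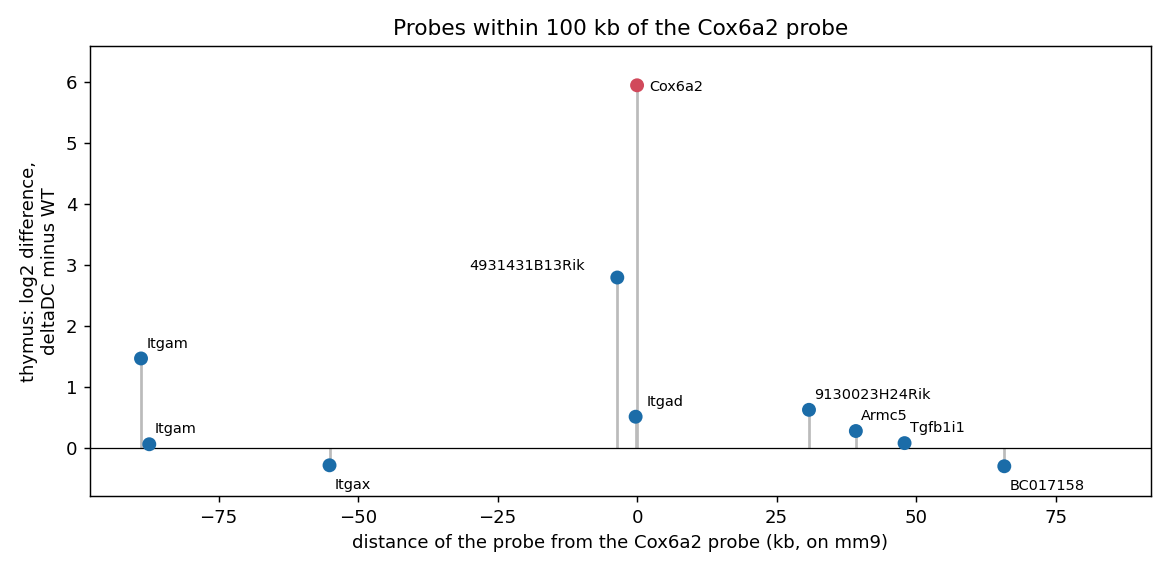
Log2 difference in thymus, deltaDC minus WT (vertical axis), of each probe well above background on both thymus arrays within 100 kb of the Cox6a2 probe, by its distance from that probe in kb on mm9 (horizontal axis). Cox6a2 (red) stands at 5.95 and 4931431B13Rik at 2.79, while Itgax lies at -0.29.

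Cox6b2 and Cox7a1 were at least 2-fold higher in thymus than in spleen in both genotypes, and less than 2-fold different between genotypes. Cox6b2, the testis form of a subunit that joins the monomers of the complex IV dimer, had signals of 107.2 on the deltaDC spleen array, 111 on the WT spleen array, 527 on the deltaDC thymus array and 512 on the WT thymus array. Its thymus signal was above that of spleen by 2.30 ± 0.15 in deltaDC and 2.21 ± 0.15 in WT, or 4.92-fold and 4.62-fold. Between genotypes it differed by -0.05 ± 0.18 in spleen and 0.04 ± 0.11 in thymus, within the spot error. Its usual partner Cox6b1 had signals of 3919, 3157, 3410.0 and 2987 in the same order and differed by -0.20 between organs in deltaDC and -0.08 in WT.

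Cox7a1, the muscle form of a small subunit at the surface where complex IV meets other complexes, had 167 on the deltaDC spleen array, 145 on the WT spleen array, 422 on the deltaDC thymus array and 325 on the WT thymus array. Thymus was above spleen by 1.34 ± 0.15 in deltaDC and 1.16 ± 0.15 in WT. The genotype difference was 0.20 ± 0.18 in spleen and 0.38 ± 0.11 in thymus. The organ difference in WT was under 2-fold after normexp background correction (0.75) and in the authors' matrix (0.98). Cox7a2, its ubiquitous partner, had 10063, 9308, 9352 and 8098 in the same order.

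Other genes differed between the same organs. Thymic epithelium genes summed to 1239 in deltaDC thymus and 359 in deltaDC spleen, and to 701 in WT thymus and 305 in WT spleen. The genes of this list did not share a direction. Among those measured in both organs, 2 of 4 were higher in deltaDC thymus (median 0.005) and 1 of 3 in WT thymus (median -0.55). Of 19 cell cycle genes, 13 were at least 2-fold higher in WT thymus than in WT spleen (median 1.45), while in deltaDC mice the median was 0.16 and none was 2-fold different. B cell genes summed to 8560 in deltaDC thymus and 2188 in deltaDC spleen, and to 4130 in WT thymus and 2274 in WT spleen. Of the few muscle genes measured in both organs, 5 of 5 were higher in deltaDC thymus (median 0.24, 2 at least 2-fold). In WT, 2 of 4 were higher in thymus (median 0.21, 1 at least 2-fold) and 2 lower. The part of these cells and of cell division in the organ differences of Cox6b2 and Cox7a1 was not tested.

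With limma over all 4 arrays, no member was called for organ or for genotype at an adjusted p under 0.05, while 64 of 13491 genes (0.474%) were called for organ and 0 (0.0%) for genotype. At an unadjusted p under 0.05 by limma, the organ term had 4 of 89 members (4.49%), against 20.2% of all genes tested, and the genotype term had 1 member (1.12%), against 4.37% of all genes. Cox6b2 came nearest for organ, at 2.25 ± 0.14 (SE, adjusted p = 0.0653 by limma). It was the member called after normexp background correction (adjusted p = 0.0277 by limma), a setting for which the share of all genes called is not given here. Over 8 alternatives its adjusted p by limma ran between 0.0277 and 0.108. For Cox7a1 the limma organ term was 1.25 ± 0.15 (adjusted p = 0.112). The fit has 1 residual degree of freedom.

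Cox4i2, the low-oxygen form of the subunit that binds ATP, stayed dim, with 60.3 on the deltaDC spleen array, 81.3 on the WT spleen array, 60.7 on the deltaDC thymus array and 56.6 on the WT thymus array. WT spleen was the highest of the 4, and the differences of -0.43 ± 0.18 between genotypes in spleen and -0.52 ± 0.18 between organs in WT were between 2 and 3 spot errors. Its partner Cox4i1 had 48635, 43716, 47060.5 and 38765 in the same order. Ndufa4l2, Cox7b2, Cox8b and Cox8c had no probe above background on any array, with their highest signal, 19.0, for Ndufa4l2 in WT spleen. Levels of different probes cannot be set against each other, so these signals do not rank the members of a pair.

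**Figure D2:**
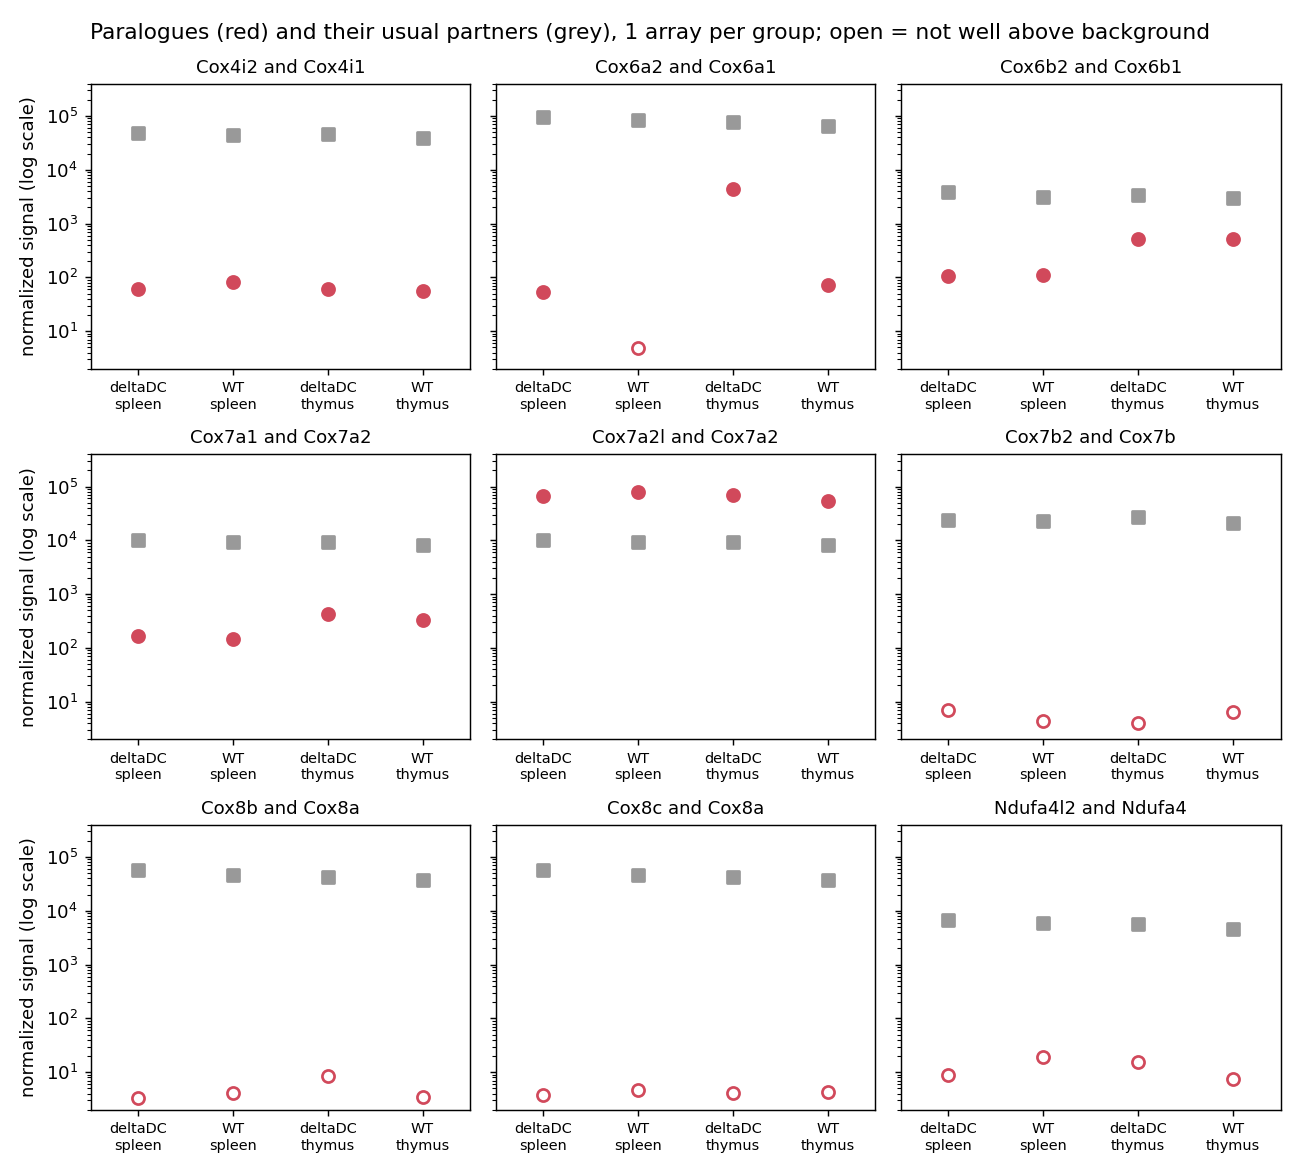
Normalized signal (vertical log axis) on each of the 4 arrays (horizontal axis) for 9 paralogues (red circles) and their usual partners (grey squares), with open symbols where a probe was not well above background. Cox6a2 stands out at 4489 on the deltaDC thymus array, and Cox6b2 and Cox7a1 are higher in thymus than in spleen in each genotype.

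Cox7a2l is known as a factor of supercomplexes of complexes III and IV, a role not tested in these mice. It was bright in all 4 groups and was kept with the ubiquitous genes. It had 66242 on the deltaDC spleen array, 80687 on the WT spleen array, 69596 on the deltaDC thymus array and 53273 on the WT thymus array. WT spleen was highest and WT thymus lowest, with genotype differences of -0.28 ± 0.07 in spleen and 0.39 ± 0.07 in thymus. Of its other probes, 1 differed by -0.00 in thymus and 1 by 0.38.

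Without the 8 tissue-specific paralogues, 75 nuclear subunits remained, all of them well above background on all 4 arrays. In thymus each of these 75 was higher in deltaDC than in WT, by 0.03 to 0.49 log2 units with a median of 0.29, as read from the brightest probe of each gene. Dimmer probes went the other way for Atp5j (-0.39), a peripheral stalk gene, Ndufb5 (-0.13) and the c-ring gene Atp5g1 (-0.06), and with the median over probes 74 of 75 were above 0. Of 13039 genes measured on both thymus arrays 60.2% were higher in deltaDC and 39.8% lower, with a median of 0.05. The difference was larger than 2 spot errors for 70 of the 75, against 22.1% of all measured genes that were higher by that much. Subunit probes are bright, and among the 2325 genes at or above the signal of the lower quartile of members, 76.6% were higher in deltaDC thymus, with a median of 0.11, against 66 of 66 members there with a median of 0.29. Quantile normalization left 71 of 75 above 0 with a median of 0.18, and the authors' matrix 69 of 75 with 0.17. Only Cox6a2 among all members was at least 2-fold different in thymus, where 0.928% of measured genes were 2-fold higher and 0.667% 2-fold lower. It was also the only member past 1.5-fold, against 2.96% of genes higher and 2.96% lower by that much.

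All 5 complexes shared this direction in thymus. Complex I had a median of 0.32 over 37 genes, complex II 0.19 over 4, complex III 0.26 over 8, complex IV 0.23 over 11 and complex V 0.28 over 15. Uqcrq, a small subunit of complex III, had 21651 on the deltaDC spleen array, 20149.9 on the WT spleen array, 26159 on the deltaDC thymus array and 18632 on the WT thymus array. Its thymic difference of 0.49 ± 0.07 was the largest of the 75, and its other probe gave 0.47. Ndufb4, an accessory subunit of the membrane arm of complex I, had 11976, 11989, 12463 and 9023 in the same order. Its WT thymus signal was the lowest and the other 3 lay close together, with differences of 0.47 in thymus and 0.00 in spleen. Atp5j2, a membrane subunit of ATP synthase, differed by 0.39 in thymus and 0.18 in spleen.

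The smallest thymic differences were those of Ndufs1 (0.03), the largest iron-sulfur subunit of complex I, and Sdha (0.06), the flavoprotein of complex II. Ndufs1 had 11250.0 on the deltaDC spleen array, 11358 on the WT spleen array, 12257 on the deltaDC thymus array and 11971 on the WT thymus array. In complex II, Sdha had 10071, 11066, 11473 and 11009, and the iron-sulfur protein Sdhb 25496, 21991, 22840.2 and 19034, in the same order. The membrane anchors followed with 4534, 4322, 4819 and 4106 for Sdhc, and 7203, 6374, 6874 and 6233 for Sdhd. Sdhb and Sdhd were higher in deltaDC in both organs, and Sdha was lower in deltaDC spleen (-0.14). Sdhc was higher in deltaDC thymus, but in spleen its 2 probes disagreed, at 0.07 for the brighter and -0.17 for the other. The least different genes of the other complexes in thymus were Uqcrh of complex III (0.18), Cox7c of complex IV (0.11) and Atp5e of complex V (0.12).

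Within ATP synthase, the 3 membrane accessory subunits Atp5j2, Atp5k and Atp5l had thymic differences of 0.35 to 0.39 and the 4 peripheral stalk genes a median of 0.34. The 5 genes of the catalytic head and central stalk had a median of 0.18 and the 3 c-ring genes 0.28. The 7 core subunits of complex I, which carry the flavin and iron-sulfur clusters, had a median of 0.28 and the 30 accessory subunits 0.32. The 7 Ndufaf assembly factors had a median of 0.08 in thymus, with 5 of 7 above 0, against 0.16 in spleen. The members that are not subunits include Ndufaf3, with 0.46 in spleen and 0.23 in thymus, and Ndufaf4, with -0.16 and -0.08. Atp5c1-ps differed by 0.41 in spleen and 0.43 in thymus, and its parent Atp5c1 by 0.21 and 0.32. A pseudogene and its parent can share labelled RNA, so these probes are uncertain as separate measurements.

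In spleen most of the same genes also lay higher in deltaDC. Of the 75, 63 were above 0, against 49.3% of 12529 measured genes, and 12 below, against 50.7%. Their median was 0.14 against -0.00 over all measured genes. These values come from the brightest probe of each gene. Among the genes counted as higher, dimmer probes were below 0 for Atp5g1 (-0.44), Ndufb5 (-0.22), Sdhc (-0.17) and Cox7c (-0.08). Among those counted as lower, dimmer probes were above 0 for Ndufab1 (0.47) and Ndufa5 (0.04). For 39 of 75 the difference was more than 2 spot errors upward and for 3 downward, where 27.0% and 26.3% of all genes were that far up and down. No member was 2-fold different, where 6.42% of genes were 2-fold higher and 2.0% lower. None was 1.5-fold different either, against 11.0% and 7.38% of genes. Quantile normalization gave 63 of 75 above 0 and the authors' matrix 59. The distance between the organs depended on the scaling: the median of the 75 was 0.29 in thymus and 0.14 in spleen as reported, 0.18 in thymus and 0.14 in spleen under quantile normalization, and 0.17 in thymus and 0.13 in spleen in the authors' matrix.

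The order of complexes in spleen was another. Complex IV had the highest median, 0.19 over 11 genes, and complex I the lowest, 0.06 over 37, with 0.12 for complex II, 0.14 for complex III and 0.14 for complex V. Ndufs8, an iron-sulfur core subunit of complex I, had 3929.5 on the deltaDC spleen array, 2935 on the WT spleen array, 3990.1 on the deltaDC thymus array and 3187 on the WT thymus array. Its deltaDC signal was above that of WT by 0.42 ± 0.08 in spleen and 0.32 ± 0.08 in thymus. Cox8a, the ubiquitous form of the smallest complex IV subunit, had 58115, 46105, 41676 and 37679.6 in the same order, with 0.33 in spleen and 0.15 in thymus. Also high in spleen were Uqcrc1 (0.26) of complex III, Sdhb (0.21) of complex II and Atp5f1 (0.28), the b subunit of ATP synthase.

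The 12 genes lower in deltaDC spleen than in WT spleen were led by Cox7a2l (-0.28), the complex III hinge protein Uqcrh (-0.19), the c-ring gene Atp5g2 (-0.17), Sdha (-0.14) and the complex I accessory gene Ndufa5 (-0.12). Uqcrh had 57969 on the deltaDC spleen array, 65989 on the WT spleen array, 55434 on the deltaDC thymus array and 48890.5 on the WT thymus array. Atp5g2 had 71637, 80455, 71649 and 61487 in the same order. Both were highest in WT spleen and lowest in WT thymus, as Cox7a2l was. Across the 75 genes the spleen and thymus differences were nearly unrelated (Pearson r = 0.11, Spearman rho = 0.10, across genes that share arrays, which are no independent replicates). All 12 that were lower in spleen were higher in thymus, as all 75 were, so this sets the 12 apart in no way.

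Summed marker signals of other cell types also differed between the arrays. In spleen, the 8 NK cell genes summed to 29856 in deltaDC and 3518 in WT, with 8 of them above background in deltaDC and 5 in WT. Neutrophil genes summed to 9948 in deltaDC spleen and 172 in WT spleen, conventional dendritic cell genes to 2854 in deltaDC and 718 in WT, and erythroid genes to 5944 in deltaDC and 2164 in WT. In thymus, erythroid genes summed to 17196 in deltaDC and 4180 in WT and neutrophil genes to 2458 in deltaDC and 950.0 in WT. Cell cycle genes were higher in deltaDC spleen than in WT spleen (median 1.35, 10 of 19 at least 2-fold, such as Nusap1 at 2.30 and Ube2c at 2.28) and had a median of -0.13 in thymus, where Kif11 had 147 in deltaDC against 294 in WT. The part of these cells and of cell division in the subunit differences was not tested.

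**Figure D3:**
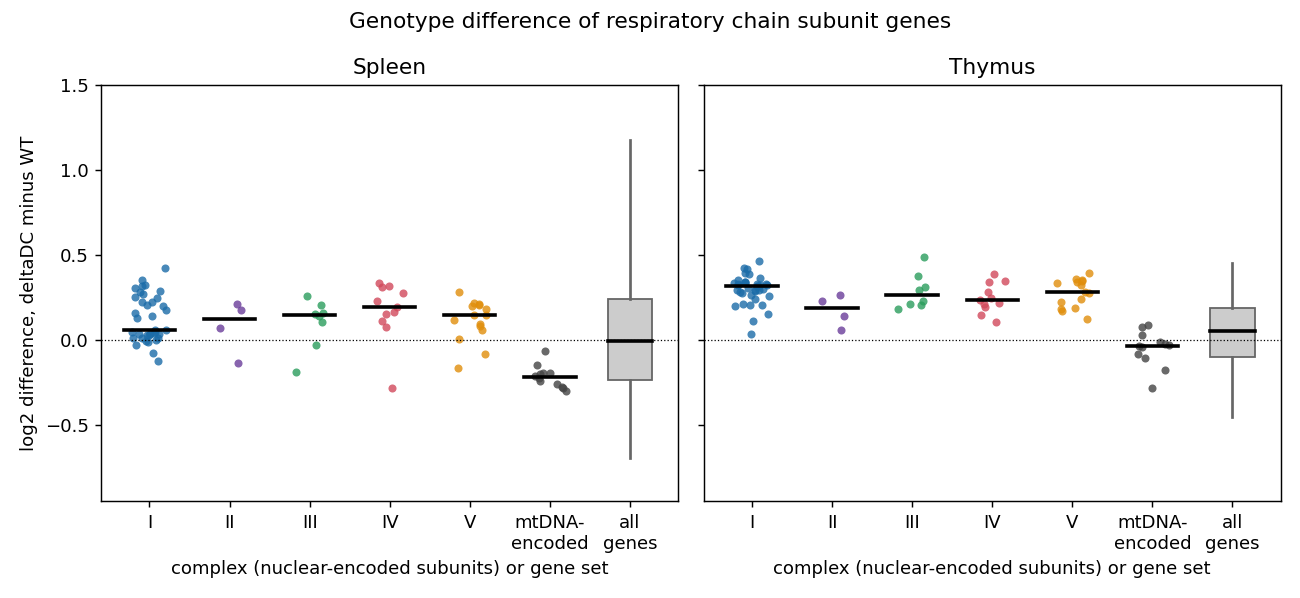
Log2 difference, deltaDC minus WT (vertical axis), of 75 nuclear-encoded subunit genes by complex and of 12 subunits encoded by mitochondrial DNA, in spleen (left) and thymus (right). Points are genes and bars medians; the box gives the quartiles, median and 5th to 95th percentiles of all measured genes. In thymus all nuclear subunits lie above 0, and in spleen all mitochondrially encoded ones lie below it.

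The 12 subunits encoded by mitochondrial DNA that the array measures are no members by the rule and were added after the members' values were seen. In spleen all 12 were lower in deltaDC than in WT, with a median of -0.22 and a range of -0.30 to -0.07. COX1, the catalytic core of complex IV, had 224007 on the deltaDC spleen array, 268433 on the WT spleen array, 230031 on the deltaDC thymus array and 232449 on the WT thymus array. CYTB, the cytochrome b of complex III, had 95554, 110017, 107411 and 110620.5 in the same order. ND1 of complex I, with 5551, 6353, 5338 and 6491, was below its WT array in both organs, as COX1, CYTB and most others of the 12 were. In thymus 3 of 12 were above 0, with a median of -0.04. The nuclear and mitochondrial genomes thus differed in direction in spleen, and in thymus their medians were 0.29 and -0.04. Under quantile normalization 3 of 12 were above 0 in spleen and 0 in thymus, and in the authors' matrix 2 and 1. For COX2, COX3, ND3, ND4L and ATP6 the files place the probe on chromosome 1, and the signal of a nuclear copy cannot be told apart from theirs.

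**Figure D4:**
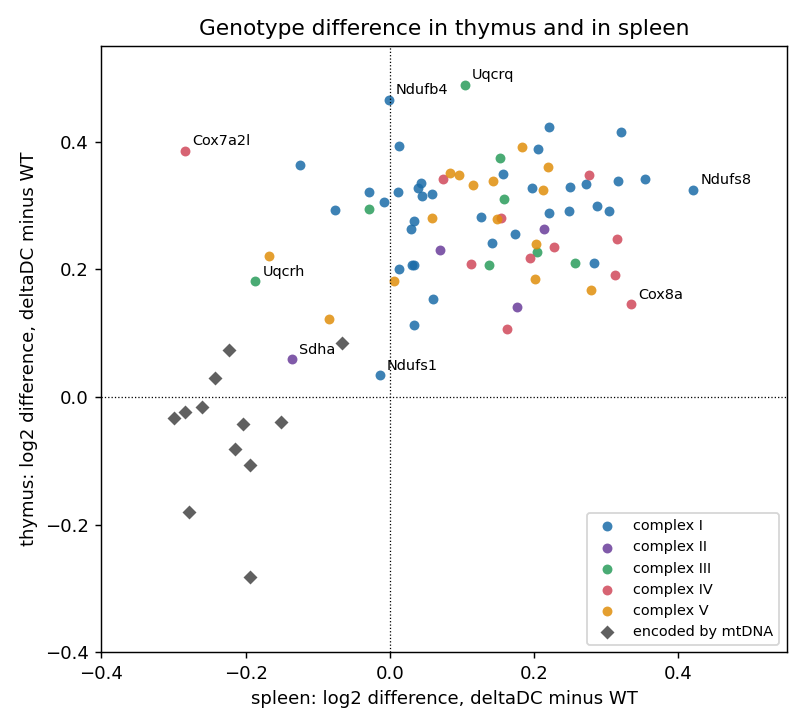
Thymic genotype difference (vertical axis, log2, deltaDC minus WT) against the splenic one (horizontal axis) for 75 nuclear-encoded subunits (circles, by complex) and 12 mitochondrially encoded ones (diamonds). All circles lie above 0 in thymus, 12 of them below 0 in spleen, and the diamonds lie below 0 in spleen.

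Among the 4 arrays, deltaDC thymus had the highest signal for 37 of the 75 genes, deltaDC spleen for 31, WT spleen for 7 and WT thymus for 0. WT thymus had the lowest signal for 59, WT spleen for 13, deltaDC spleen for 3 and deltaDC thymus for 0. No such count over all genes is given here. Most genes as bright as the members were also higher in deltaDC thymus than in WT thymus, and lower in WT thymus than in WT spleen. This order is thus not shown to be particular to the subunits. Quantile normalization changed this order at the low end, with WT spleen lowest for 40 genes and WT thymus for 29, and kept deltaDC thymus (43) and deltaDC spleen (24) at the top.

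Between organs no common direction of the subunits held under every normalization. The organ comparisons share arrays with the genotype comparisons. In WT mice thymus minus spleen had a median of -0.13 over the 75 genes, with 14 of 75 above 0, against -0.08 and 41.4% of 12482 measured genes, of which 58.6% were below 0. Quantile normalization gave 0.05 with 43 of 75 above 0, and the authors' matrix 0.03 with 42 of 75. Only Cox6b2 and Cox7a1 among members were at least 2-fold higher in WT thymus, where 6.54% of genes were, and no member was 2-fold lower, where 3.03% were. Bright genes in general were lower in WT thymus: of the 2325 at the members' signal 26.5% were above 0, with a median of -0.19, and the 66 members among them had a median of -0.18 with 18.2% above 0.

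Within this comparison, Cox7a2l (-0.60), Ndufb11 (-0.53), an accessory subunit of the complex I membrane arm, Atp5e (-0.47), the epsilon subunit of ATP synthase, Uqcr11 (-0.43), a small complex III subunit, and Sdhb (-0.21) lay lowest in their complexes. Atp5b (0.27), the catalytic beta subunit of ATP synthase, Ndufa12 (0.15) and Uqcrc1 (0.11) lay highest. Atp5b had 49552 on the deltaDC spleen array, 43047 on the WT spleen array, 61196 on the deltaDC thymus array and 51852 on the WT thymus array. Core subunits of complex I had a median of -0.02 and accessory ones -0.24 in WT, which became 0.14 and -0.03 under quantile normalization and 0.13 and -0.00 in the authors' matrix.

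In deltaDC mice thymus minus spleen had a median of 0.01 over the 75 genes, with 40 above 0, against -0.02 and 48.1% of 12803 measured genes, of which 51.9% were below 0. The authors' matrix gave 50 of 75. Cox6a2, Cox6b2 and Cox7a1 were the members at least 2-fold higher, where 5.37% of genes were, and no member was 2-fold lower, where 6.15% were. Complex IV was lowest with a median of -0.11, led by Cox8a (-0.48), and turned to 0.02 in the authors' matrix. In the other complexes Ndufb11 (-0.43), Atp5e (-0.27), Uqcrb (-0.25) and Sdhb (-0.16) were lowest, and Ndufab1 (0.33), the mitochondrial acyl carrier protein, Atp5b (0.30), Uqcrq (0.27) and Sdha (0.19) highest.

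**Figure D5:**
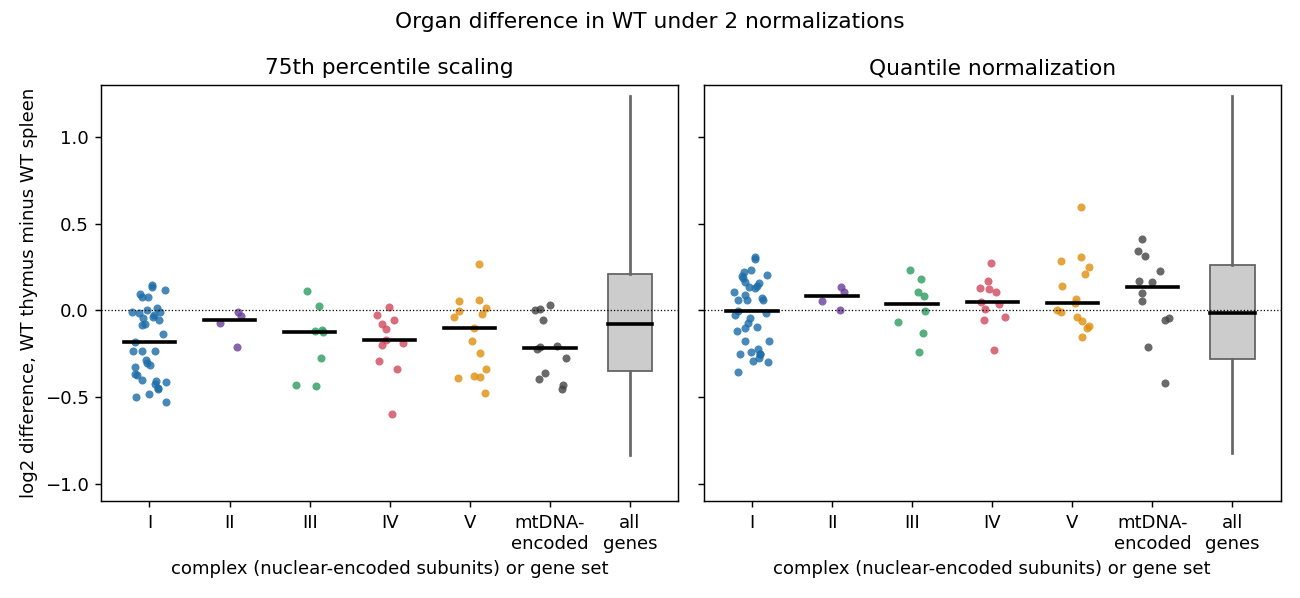
Log2 difference, WT thymus minus WT spleen (vertical axis), of 75 nuclear-encoded subunits by complex and 12 mitochondrially encoded ones, after 75th percentile scaling (left) and quantile normalization (right), with bars at medians and the box as quartiles and 5th to 95th percentiles of all measured genes. The median over nuclear subunits is -0.13 on the left and 0.05 on the right.

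Genes around the chain gave the following medians. Of 12 measured electron carriers and partners of the complexes, such as cytochrome c (Cycs) and the adenine nucleotide carriers Slc25a4 and Slc25a5, 12 were higher in deltaDC thymus (median 0.23) and 9 in deltaDC spleen (0.14), with none 2-fold different. Other assembly factors had medians of 0.16 over 37 in thymus and 0.06 over 38 in spleen. The 18 tricarboxylic acid cycle genes had 0.15 in thymus and 0.13 in spleen. Idh2, the mitochondrial NADP-dependent isocitrate dehydrogenase, was the only cycle gene at least 2-fold different in any comparison, with 4318 on the deltaDC spleen array, 4127 on the WT spleen array, 10073 on the deltaDC thymus array and 8984 on the WT thymus array. Glycolysis genes had 0.09 in thymus and 0.35 in spleen. Regulators of mitochondrial genes had 0.07 over 16 in thymus and -0.15 over 17 in spleen, where Myc was lower at 1289.7 in deltaDC against 2585 in WT. Nrf1, which drives many respiratory chain promoters, differed by -0.04 in thymus and -0.21 in spleen, and Ppargc1a was not above background on any array.

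The promoters of the members were also searched for motifs, which are a property of the genes and not of the arrays. RefSeq promoter windows on GRCm38.p6, from 250 bases before to 50 after each start, were given for 76 of the 93 members and for 27025 genes in all. Motifs were searched on both strands. The nuclear respiratory factor 1 type motif, GCGC repeated after a gap of 2 bases of any kind, was in 21 of 76 windows (27.6%), against 7.0% of all genes. CCGGAAG, an ETS motif of the kind GABP binds, was in 17 (22.4%), against 9.93%, and AAGATGGC, of the YY1 type, in 11 (14.5%), against 3.19%. CACGTG, the E-box, was in 7 (9.21%), against 8.09%. The first motif was in 6 of 14 complex V windows and 9 of 33 complex I windows but in 1 of 13 of complex IV. None of the motifs was in the windows of the 4 tissue-specific paralogues that had any. A match is a description of the letters, not a site of binding.

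The single complex IV match for the first motif was Cox6a1. The 250 bases before the starts of Cox6a1 (chr5:115348959-115349208, minus strand), Ndufb4 (chr16:37654369-37654618, minus strand) and Atp5h (chr11:115419920-115420169, minus strand) show the motifs in capitals, and those of Cox6b2 (chr7:4753095-4753344, minus strand) and Cox7a1 (chr7:30183921-30184170, plus strand) hold none. All are on GRCm38.p6, 5′ to 3′ on the strand of the gene. Ndufb4 and Atp5h were chosen as the complex I and complex V genes with the most kinds of motif in this stretch, ties being settled by the number of matches. The choice used the first window of each gene and left out the genes of a single chromosome.
Cox6a1: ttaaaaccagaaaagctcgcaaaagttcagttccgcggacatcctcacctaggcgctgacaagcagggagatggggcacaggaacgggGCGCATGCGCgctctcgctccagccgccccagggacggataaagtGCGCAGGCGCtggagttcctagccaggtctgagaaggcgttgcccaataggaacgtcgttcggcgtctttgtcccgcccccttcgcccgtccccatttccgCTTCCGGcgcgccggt
Ndufb4: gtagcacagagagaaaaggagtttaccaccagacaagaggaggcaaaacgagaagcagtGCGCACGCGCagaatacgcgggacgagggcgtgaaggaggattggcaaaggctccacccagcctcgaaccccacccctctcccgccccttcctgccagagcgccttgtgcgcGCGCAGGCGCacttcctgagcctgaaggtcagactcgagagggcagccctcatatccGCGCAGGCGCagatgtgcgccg
Atp5h: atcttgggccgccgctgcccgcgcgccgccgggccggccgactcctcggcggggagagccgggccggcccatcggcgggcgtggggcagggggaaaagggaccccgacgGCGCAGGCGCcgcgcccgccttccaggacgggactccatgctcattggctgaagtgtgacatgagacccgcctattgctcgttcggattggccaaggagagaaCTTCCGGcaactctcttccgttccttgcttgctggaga
Cox6b2: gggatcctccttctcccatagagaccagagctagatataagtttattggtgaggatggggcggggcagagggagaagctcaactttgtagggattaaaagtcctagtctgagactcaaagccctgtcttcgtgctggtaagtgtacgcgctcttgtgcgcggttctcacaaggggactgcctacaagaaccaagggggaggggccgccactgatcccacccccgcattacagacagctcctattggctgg
Cox7a1: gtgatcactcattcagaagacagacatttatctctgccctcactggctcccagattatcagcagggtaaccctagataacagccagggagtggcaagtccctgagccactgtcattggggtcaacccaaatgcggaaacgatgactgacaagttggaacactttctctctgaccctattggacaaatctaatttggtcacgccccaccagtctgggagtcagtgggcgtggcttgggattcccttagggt

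The thymic genotype differences of these genes were 0.47 for Ndufb4, 0.34 for Atp5h, 0.22 for Cox6a1, 0.04 for Cox6b2 and 0.38 for Cox7a1. Whether the motifs bear on these differences was not tested.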

How the data were processed

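RNA of Tregs was hybridised to 4 one-colour arrays, 1 per group, from 10 ng of total RNA per the labels. Per the file headers, the deposited scanner intensity values come from Feature Extraction 10.7.3.1 with background already subtracted array by array. The authors also deposited a matrix of log2 values, whose header names background subtraction and quantile normalization. Each of its columns had its highest Pearson r, 0.996 or 0.997 over 22290 genes, with the scanner array carrying its own label, and column medians ran between 4.10 and 4.15. Its offset is unknown, and it served as an alternative. Flag columns of other values, 0 or 1, marked spots above background.

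All 4 arrays lie on 1 slide with 1 scan. Outlier spots were dropped, log2 intensities were scaled to each array's 75th percentile (391 for deltaDC spleen, 340.2 for WT spleen, 418 for deltaDC thymus, 407 for WT thymus), repeated spots were averaged, and the brightest probe represented a gene. Between 48.7% and 50.7% of spots were well above background. A gene was measured in a comparison when well above background on both arrays. One above it on a single array got a bound: its bright signal divided by the lowest signal counted as above background on the other array, or by the dim signal where that was larger. Spot error came from 399 probes with repeated spots, in bins of signal. Genotype plus organ was fitted with limma 3.58.1 (R 4.3.3) on the 13491 genes that 2 or more arrays measured above background, with Benjamini-Hochberg adjustment, after the code was tested on simulated data.

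The members, lists, subgroups and named genes were chosen with earlier results of these data known. Genes were named by a rule: members at least 2-fold different or with such a bound, the paralogues with their partners, the brightest and most different genes of each complex, the genes of complex II, and genes of the other lists at least 2-fold different, of which only counts and examples are given for the cell cycle and marker lists. Genes near Cox6a2, the defining markers and the regulators and carriers with smaller differences were named after their values were seen. Probe coordinates are the files', on mm9. No protein sequence was used here. The number of arrays limits the precision.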

Additional observations from a re-analysis of the deposited data

How the results depend on the processing

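No paired analysis was possible because each group has 1 array and so no replicate numbers to pair or replicates to leave out, beyond the limma fit already reported, which compares organs within each genotype. A median or difference was taken to move past 1 spot error (0.070 log2 units for medians) and a count past 1.5 times. By these limits, over 10 alternatives, 95 values stayed, 11 moved and 2 changed sign. After normexp background correction 1 member was at least 2-fold different between WT organs and 1 was called for organ by limma, and Cox6a2 differed by 5.10 between genotypes in thymus. Quantile normalization gave a member median of 0.17 for genotype in thymus and of 0.061 between WT organs, where the sign turned. The authors' matrix gave 0.17 and 0.050, the sign of the WT organ median again turning, with 1 member 2-fold different between WT organs and 6.32 for Cox6a2. Without the filter on dim probes, 2 members were 2-fold different between genotypes in spleen, 3 in thymus and 4 between WT organs, since probes near background then count. With genes above background on all 4 arrays, 0 were in thymus, since Cox6a2 left the set and so gave no value. No share over all genes is given beside the counts of these alternatives, so they describe the processing only. Scaling to the median of bright probes, taking the median over probes, keeping outlier spots, subunits only (which was not run for Cox6a2) and every probe as its own unit moved no other value past these limits. The cause of the turned sign was not tested. Low signal limits the paralogues: 4 gave no value above background, and at signals of 50 to 200, as for Cox4i2 and the spleen spots of Cox6b2 and Cox7a1, the spot SD was 0.13 log2 units.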
